A study of Mus musculus with 4 samples.

Results

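The genes described are the mouse genes that bind, move and sense zinc, iron and copper. They were taken by symbol from the protein-coding entries of the deposited count table: the 4 metallothioneins (Mt1 to Mt4), every numbered gene of the zinc exporter family Slc30a (ZnT, 10 genes) and of the zinc importer family Slc39a (ZIP, 14 genes), and 15 named genes of metal sensing, iron and copper handling. This gave 43 of the 45703 genes in the table. All 4 libraries were poly-A RNA-seq of glial cultures made from frontal cortex of wild-type pups of the outbred CD-1 stock on postnatal day 4, and they form 1 group with no contrast. Cells grew in medium with serum, B27 and EGF (10 ng/ml), were reseeded at 200000 per dish on day 6 in vitro, and were lysed for RNA 3 days later. Just before that all 4 spent 1 h in serum-free Ham's. The labels name no sorting step and do not say how many mice went into a culture, so errors below measure only the spread between these 4 libraries.

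Metallothioneins are small cysteine-rich proteins that hold zinc and copper in the cytosol. Cells take zinc up into the cytosol through ZIP proteins and move it out of the cytosol through ZnT proteins. Iron enters on transferrin through the transferrin receptor, is stored in ferritin shells of heavy and light chains, and leaves through ferroportin with the help of a ferroxidase. In brain, astrocytes are known for metallothionein and ceruloplasmin and for contact with blood vessels, from which metals reach the tissue, whereas ferritin is known mainly from oligodendrocytes and microglia.

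The libraries held 37300485 to 42369109 estimated counts. All 8 astrocyte markers were expressed, meaning a CPM (counts scaled to a library sum of 1000000) of at least 1 in every library, led per length by Slc1a3 and Gfap. Genes listed as markers of other cells were expressed as well. These were 7 of 8 microglial, 4 of 6 fibroblast, 4 of 8 oligodendrocyte, 3 of 6 neuronal and 3 of 4 mural genes. Of choroid plexus and ependymal genes 2 of 5 were expressed, and of endothelial genes 0 of 4. Mog and Cldn5 had at most 3 counts in all. Some lists were uneven. Mean CPM was 240.9 for Olig2 but 0.0554 for Sox10, 147.8 for Stmn2 but 0.0734 for Rbfox3, and 651.7 for Col1a2 but 0.217 for Lum. Which cells held these RNAs was not tested. In bulk RNA, fewer cells of a type and less RNA per cell cannot be told apart. Cultures 1 to 3 were near repeats and culture 4 stood apart (chi-square per degree of freedom 39.4 to 41.1 for pairs with culture 4 and 2.11 to 3.17 for the others), so results that rest on culture 4 are given with and without it.

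Of the 43 metal-handling genes 36 were expressed, or 83.7%, beside 58.1% of all protein-coding genes. The median expressed member stood at 64.4 CPM, against 32.0 CPM for the median expressed protein-coding gene. Together the 43 genes held 0.625% of the counts of culture 4 and 0.754% to 0.762% of those of cultures 1 to 3. Most of that came from ferritin, with 36.9% of the members' counts in culture 4 and 45.4% to 46.2% in the other cultures, and from metallothioneins, with 25.1% in culture 4 and 19.7% to 20.3% in the others. Of the 7 genes below the minimum, 6 are known mainly from other cells: Slc30a8 from pancreatic beta cells, Slc30a3 from synaptic vesicles of neurons, Slc30a2 from mammary gland, Slc39a4 and Slc39a5 from gut, and Mt4 from stratified epithelium. The other was Slc39a2.

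**Figure D1:**
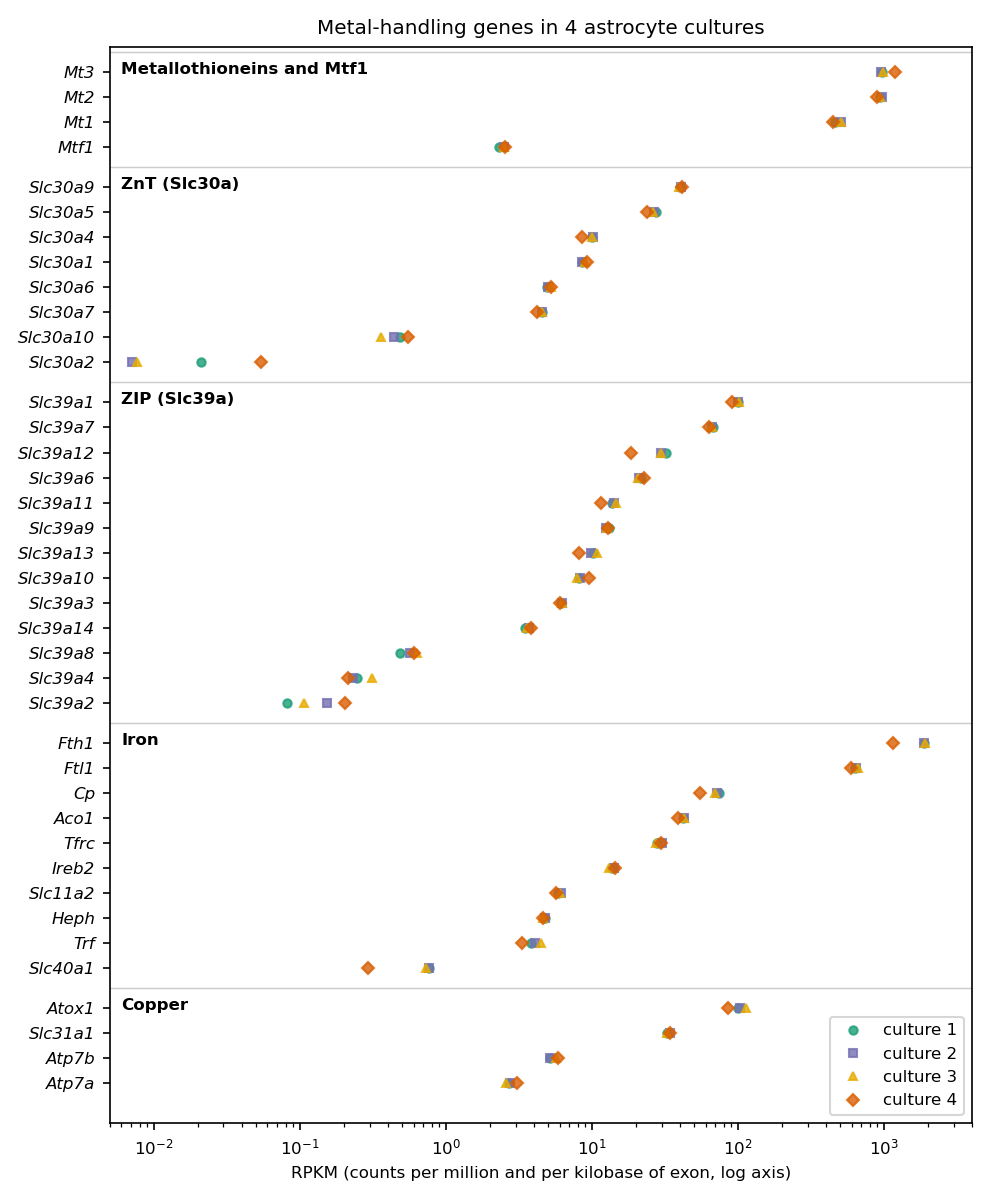
RPKM (CPM per kilobase of combined exon length, log axis) of the 39 metal-handling genes with more than 3 counts in all, by role, with 1 symbol for each culture. Fth1 and the metallothioneins Mt1 to Mt3 lie at the right, and Slc39a12, Fth1 and Slc40a1 are the genes whose culture 4 symbol stands visibly apart to the left.

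Per length, metallothioneins were among the most abundant transcripts of these cultures. Their RPKM (CPM per kilobase of exon) ranks were 20 for Mt3, 23 for Mt2 and 69 for Mt1 among the 14725 expressed genes. By CPM, which has no length term, the ranks were 190, 213 and 260 among all 45703 genes. Mt3, the brain-enriched member, Mt2 and Mt1 had 551.4 ± 60.7, 519.6 ± 16.2 and 460.4 ± 28.8 CPM (SD, n = 4). Mt4 had 1.51 counts in all, at or under the floor of 3 counts. The 4 genes lie side by side on chromosome 8, from 94137204 (Mt4) to 94180327 (Mt1) on the plus strand, build GRCm38.p6. Mt1 and Mt2 are the classical targets of Mtf1, the zinc-sensing transcription factor that binds metal response elements (MREs), so the sequence around their starts is shown. The windows run from 170 bases before to 30 bases after the RefSeq start on GRCm38.p6 (Mt1 chr8:94178919-94179118, Mt2 chr8:94172448-94172647, both plus strand), and capitals mark the MRE core.

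Mt1: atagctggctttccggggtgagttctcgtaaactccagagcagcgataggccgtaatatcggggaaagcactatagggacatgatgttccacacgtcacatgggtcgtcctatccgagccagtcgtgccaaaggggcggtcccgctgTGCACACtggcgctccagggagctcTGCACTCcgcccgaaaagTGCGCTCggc

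Mt2: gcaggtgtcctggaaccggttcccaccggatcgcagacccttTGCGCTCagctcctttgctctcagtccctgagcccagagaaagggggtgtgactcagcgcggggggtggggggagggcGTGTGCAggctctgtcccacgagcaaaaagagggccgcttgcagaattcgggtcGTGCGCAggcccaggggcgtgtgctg

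The core was searched as TGCACNC and TGCGCNC on both strands, where matches may overlap. In these windows the matches began at bases -23, 3 and 21 from the start of Mt1 and at -128, -50 and 5 for Mt2. GENCODE transcripts of Mt1 begin 199 to 358 bases, and those of Mt2 46 to 242 bases, after the gene start of the count table, so that the windows do not mark 1 fixed start. For Mt2 that gene start, 94172618, is also the start from which the matches are counted. For Mt1 it is 94178883, before the first base of the window, so the 199 to 358 bases are not counted from the start used for the Mt1 matches. In the whole 300-base windows of the RefSeq table, which start 250 bases before the RefSeq start, Mt2 had 4 matches and Mt1, Slc30a4 and Slc30a10 had 3 each. Slc30a1, Slc30a2, Atp7a and a promoter of Tfrc had 2 each, another promoter of Tfrc had 0, and Mt3 had 1. Of all 32851 such promoters 25.7% held at least 1 match, 7.11% at least 2 and 1.97% at least 3, and of the 43 promoters of the 35 members found there 46.5%, 18.6% and 9.30% did. A match is a description of letters and not a bound site. Mtf1 itself had 18.8 ± 0.747 CPM and 2.46 ± 0.0979 RPKM.

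Per length, Mt3 and Mt2 were not told apart and both exceeded Mt1. Mt3 had 519.4, 514.9, 529.4 and 642.0 CPM in cultures 1 to 4. Mt2 had 522.6, 535.9, 522.7 and 497.2 CPM. In culture 4 Mt3 was above and Mt2 below every other culture, and in cultures 1 to 3 their CPM ranges overlapped. The log2 ratio of their RPKM was 0.13 ± 0.075 (SE, calculated back from the test; Mt3 higher in 3 of 4; edgeR quasi-likelihood, adjusted p = 0.141), with a fold of 1.33 in culture 4 and of 0.993 to 1.05 in the others. Among cultures 1 to 3 alone the log2 ratio was 0.03 (edgeR, adjusted p = 0.241). Mt1 had 439.9, 483.8, 486.4 and 431.4 CPM. Its RPKM was 1.95-fold below that of Mt2 (log2 ratio of Mt2 to Mt1 0.97 ± 0.041; edgeR, adjusted p = 3.5e-07; above in 4 of 4), but this fold fell to 1.59 with GENCODE transcript lengths and to 1.13 without a length term. The deposited exon length of Mt1 is 961 bases, against 633 for its median GENCODE transcript, and for Mt2 the lengths are 556 and 449.5 bases.

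**Figure D2:**
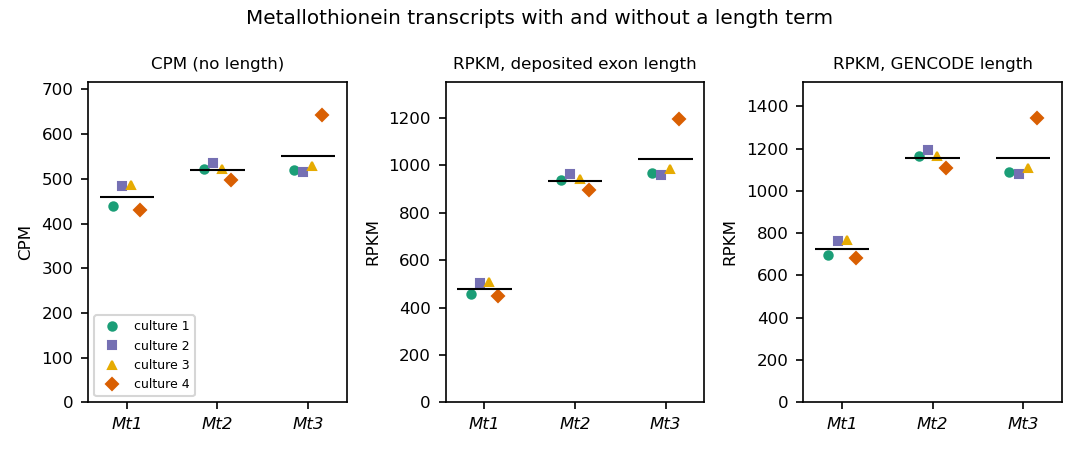
Levels of Mt1, Mt2 and Mt3 in each culture as CPM, as RPKM with the deposited exon length and as RPKM with the median GENCODE transcript length. Symbols are cultures and lines are means of 4. Mt1 lies close under the others in CPM (460.4, against 519.6 for Mt2 and 551.4 for Mt3) and further below them once length is used.

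Levels within a family were compared as ratios inside each library, over 140 of the 146 possible pairs of members. Of these, 135 differed (edgeR, Benjamini-Hochberg adjusted over 23099 pairs of same-family genes from the whole table). Over all genes 95.3% of pairs differed, so the members' share of calls is near the background and says nothing particular about them. In 6 of 7 families 1 gene was above every other member in the test and in all 4 libraries. The exception was the metallothioneins. Fth1/Ftl1, Cp/Heph, Aco1/Ireb2 and Atp7a/Atp7b are families of 2 genes, where this rests on a single pair. The share of such families over the whole table was not calculated. These tests count cultures 1 to 3 as separate libraries although they were near repeats, so the adjusted p may be too small. With cultures 1 to 3 summed 134 pairs were called, at larger adjusted p (edgeR, 0.0023 for Slc39a1 over Slc39a7 and 0.000206 for Mt2 over Mt1).

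Among ZIP importers, which carry zinc into the cytosol, 11 of 14 were expressed and Slc39a1 was on top. Slc39a1 (ZIP1, a plasma membrane importer; GeneID 30791; chromosome 3, 90248190 to 90253613, plus strand) had 236.0, 235.3, 239.0 and 213.5 CPM in cultures 1 to 4. The second gene was Slc39a7 (ZIP7, which releases zinc from the endoplasmic reticulum; GeneID 14977; chromosome 17, 34028266 to 34031690, minus strand), with 160.8, 158.8, 158.9 and 152.4 CPM. Slc39a1 was 1.48-fold above Slc39a7 per length (log2 ratio 0.57 ± 0.037, SE; edgeR, adjusted p = 3.95e-06; above in 4 of 4). Its counts were partly split with other features, and the pseudogene Slc39a1-ps had 21.8% to 22.5% as many counts. With these added the fold was 1.81, and with GENCODE lengths and the counts as deposited it was 1.2 (edgeR, adjusted p = 0.000346).

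Slc39a12 (ZIP12, a brain-enriched zinc importer; GeneID 277468; chromosome 2, 14388316 to 14494977, plus strand) was the third ZIP gene per length with the deposited lengths, and with a biological coefficient of variation between cultures (edgeR) of 0.185 the most uneven of the 11 expressed ones. With GENCODE lengths it had 28.6 RPKM on average, below Slc39a13 at 30.6 RPKM. Culture 4 had 51.4 CPM, while cultures 1 to 3 had 89.2, 81.6 and 81.7 CPM. The groups of values do not overlap. Its RPKM was 1.4-fold to 1.5-fold above that of Slc39a6 in cultures 1 to 3 but 0.824-fold in culture 4, and over all 4 the pair was not told apart (log2 ratio 0.33 ± 0.14, SE; edgeR, adjusted p = 0.0598). With culture 4 left out it was 0.53 on the log2 scale (edgeR, adjusted p = 1.08e-14), a p that measures only the spread between 3 near repeats. With GENCODE lengths and all 4 cultures it was 0.38 (edgeR, adjusted p = 0.0371), and without a length term -0.16 (adjusted p = 0.301). Culture 4 also had lower values of 5 of 8 astrocyte markers, with a sum of 5614 CPM against 6687 to 6874 CPM in the others. Gfap had 779.7 CPM there, against 1498 to 1555 CPM, and Aldh1l1 751.5 CPM, against 721.0 to 736.7 CPM. The part of these markers in the Slc39a12 value was not tested.

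The related plasma membrane importers Slc39a6 (ZIP6) and Slc39a10 (ZIP10) had 83.7, 81.9, 80.7 and 87.8 CPM and 78.7, 79.2, 75.2 and 92.2 CPM. Both were highest in culture 4. Slc39a9, a Golgi protein, was the steadiest, at 72.5, 69.9, 70.6 and 71.9 CPM, and Slc39a13, of the Golgi and vesicles, had 60.0, 58.2, 64.2 and 48.2 CPM. Slc39a11 had 49.8 ± 4.81 CPM, Slc39a14 37.4 ± 1.43, Slc39a3 26.7 ± 0.446 and Slc39a8 4.47 ± 0.509 CPM. Slc39a8 (ZIP8) and Slc39a14 (ZIP14), which also carry manganese and iron, differed per length, with Slc39a14 6.42-fold above Slc39a8 (log2 ratio 2.68 ± 0.082, SE; edgeR, adjusted p = 5.72e-08). That fold was 13.4 with GENCODE lengths and 8.39 without a length term. Below the minimum, Slc39a4 had 0.949, 0.898, 1.21 and 0.826 CPM, close to the threshold in every culture, Slc39a2 0.444 ± 0.173 CPM and Slc39a5 3 counts in all.

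In order of RPKM the expressed ZIP genes ran Slc39a1, Slc39a7, Slc39a12, Slc39a6, Slc39a11, Slc39a9, Slc39a13, Slc39a10, Slc39a3, Slc39a14 and Slc39a8. Neighbours not told apart were Slc39a12 and Slc39a6, Slc39a11 and Slc39a9 (edgeR, adjusted p = 0.339), and Slc39a13 and Slc39a10 (edgeR, adjusted p = 0.132). Without culture 4 both of the last pairs were called, at log2 ratios of 0.14 for Slc39a11 over Slc39a9 (edgeR, adjusted p = 0.00375) and of 0.34 for Slc39a13 over Slc39a10 (edgeR, adjusted p = 2.44e-09), against the spread of 3 near repeats only. With cultures 1 to 3 summed neither was, at -0.01 (edgeR, adjusted p = 0.969) and 0.05 (adjusted p = 0.785). With GENCODE lengths the ratios were 0.43 (edgeR, adjusted p = 0.000524) and 1.05 (adjusted p = 6.8e-05), and without a length term -0.52 (adjusted p = 0.00018) and -0.50 (adjusted p = 0.00373). The middle of this order rested on the gene length. With GENCODE lengths Slc39a13 rose to 30.6 ± 3.61 RPKM, against 9.71 ± 1.14 RPKM with the deposited length, and Slc39a14 to 17.8 ± 0.681, against 3.65 ± 0.140 RPKM. Slc39a13 then stood above Slc39a9 (log2 ratio of Slc39a9 to Slc39a13 -1.15; edgeR, adjusted p = 3.78e-06) and Slc39a14 above Slc39a3 (log2 ratio of Slc39a3 to Slc39a14 -1.30; edgeR, adjusted p = 3.19e-07).

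Of the ZnT exporters 7 of 10 were expressed, at means of 0.460 to 40.2 RPKM. Slc30a9, linked to mitochondrial zinc (GeneID 109108; chromosome 5, 67306955 to 67356142, plus strand), had 135.6, 138.9, 133.6 and 140.6 CPM. Slc30a5, which with Slc30a6 loads zinc into enzymes of the secretory pathway (GeneID 69048; chromosome 13, 100802645 to 100833480, minus strand), had 89.7, 87.0, 84.8 and 77.5 CPM. Slc30a9 was 1.54-fold above Slc30a5 with the deposited lengths (log2 ratio 0.63 ± 0.052, SE; edgeR, adjusted p = 1.55e-05; above in 4 of 4) and below it with GENCODE lengths (log2 ratio -0.25; edgeR, adjusted p = 0.00276). Which of them leads the family therefore depended on the length used: the deposited exon length of Slc30a9 is 3410 bases and its median GENCODE transcript 5679.5 bases.

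Slc30a4, of endosomal vesicles, had 54.7, 55.7, 55.0 and 47.1 CPM and was lowest in culture 4. Slc30a1 (ZnT1), the main plasma membrane zinc exporter and itself a known Mtf1 target, had 47.2 ± 1.68 CPM and was highest in culture 4, at 49.2 CPM against 45.5 to 47.9 CPM in the others. Per length these neighbours were not told apart (log2 ratio of Slc30a4 to Slc30a1 0.14 ± 0.066, SE; edgeR, adjusted p = 0.0834). GENCODE lengths gave a call (0.45; edgeR, adjusted p = 0.000429), as did the fit with no length term (0.17; adjusted p = 0.0435). It was also called without culture 4 (0.21; adjusted p = 6.66e-05), against the spread of 3 near repeats only, and not with cultures 1 to 3 summed (0.06; adjusted p = 0.64). Slc30a7, of the Golgi, had 44.3 ± 1.65 CPM, Slc30a6 11.4 ± 0.414 CPM and Slc30a10, a manganese exporter, 2.69 ± 0.472 CPM. Per length Slc30a6 was 1.15-fold above Slc30a7 (log2 ratio 0.20 ± 0.062, SE; edgeR, adjusted p = 0.019), a call that leaving out culture 2 (edgeR, adjusted p = 0.0517) or culture 3 (0.0697), or summing cultures 1 to 3 (0.138), ended, at folds of 1.16, 1.14 and 1.18. Without the length term Slc30a6 was the lower one (log2 ratio -1.96). Slc30a2 had 13 counts in all, Slc30a3 1 count and Slc30a8 none, which allows up to 0.0708 to 0.0804 CPM in a library (3 counts, counting error only).

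**Figure D3:**
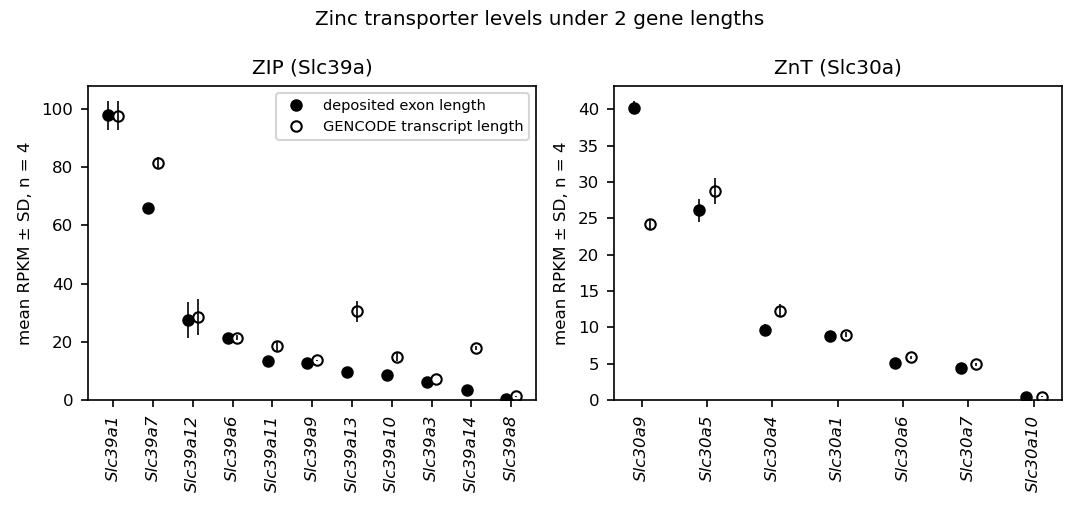
Mean RPKM ± SD (n = 4) of the expressed ZIP (left) and ZnT (right) genes, with the deposited combined exon length (filled) and the median GENCODE transcript length (open). Slc39a13 and Slc39a14 stand higher with the GENCODE length, and Slc30a9 falls below Slc30a5 with it.

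Iron storage gave the highest level of the set. Fth1, the ferritin heavy chain, which oxidises iron as it enters the shell (GeneID 14319; chromosome 19, 9980600 to 9985111, plus strand), ranked 10 among expressed genes by RPKM, at 1699 ± 367. Culture 4 had 1735 CPM, against 2841, 2819 and 2873 CPM in cultures 1 to 3. The light chain Ftl1 (GeneID 14325; chromosome 7, 45457944 to 45459886, minus strand) had 572.9 CPM in culture 4 and 614.6, 620.1 and 642.4 CPM in the others. Of this pair the heavy chain alone was lower by more than 1.5-fold in culture 4 (0.610 of the mean of the other 3), while the light chain was at 0.916 of that mean.

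Fth1 was 2.64-fold above Ftl1 per length (log2 ratio 1.40 ± 0.11, SE; edgeR, adjusted p = 1.05e-05; above in 4 of 4), with a fold of 1.94 in culture 4 and of 2.87 to 2.97 in the others. It was 4.11-fold without a length term, and 2.92-fold without culture 4. Ftl1 shares sequence with processed pseudogenes: Ftl1-ps1 had 97.7 ± 5.50, Ftl2-ps 78.2 ± 4.48 and Ftl1-ps2 1.77 ± 0.110 CPM, together 28.7% to 29.4% of the Ftl1 counts. The pseudogene share was as even across cultures as that range shows, and with these counts added to Ftl1 the fold was 2.05 (edgeR, adjusted p = 5.69e-05). Some Fth1 counts were not whole either, and no counts of other features were added to Fth1.

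Ferritin, ferroportin and the transferrin receptor are the textbook genes of iron-responsive elements (IREs), hairpins that the proteins IRP1 and IRP2 bind when iron is scarce. In a 5′ untranslated region this blocks translation, and in the 3′ untranslated region of the transferrin receptor it protects the RNA. The elements below were found in GENCODE M21 transcripts (GRCm38) by the loop CAGTGN on the transcript strand, with 5 bases before it that pair with the 5 after it, G-T pairs allowed, and a C just before those. Capitals mark the loop of 6 bases.

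Fth1, 5′, chr19:9982734-9982759, plus strand: cctgcttcaaCAGTGCttgaacggaa

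Ftl1, 5′, chr7:45459780-45459805, minus strand: cttgcttcaaCAGTGTttgaacggaa

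Slc40a1, 5′, chr1:45925466-45925491, minus strand: acttcagctaCAGTGTtagctaagtt

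Tfrc, 3′, chr16:32631221-32631246, plus strand: ttatcggaagCAGTGCcttccataat

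Tfrc, 3′, chr16:32631600-32631625, plus strand: ttatcgggagCAGTGTcttccataat

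Tfrc, 3′, chr16:32631665-32631690, plus strand: atatcggagaCAGTGAtctccatatg

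Tfrc, 3′, chr16:32631712-32631737, plus strand: ttatcgggaaCAGTGTttcccataat

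This pattern was found in no other member's transcripts. The search needed every base beside the loop to pair as stated, so hairpins with an extra unpaired base there would be missed. The list may therefore be incomplete, also for Tfrc, and a member without a match, such as Slc11a2, may still hold an IRE. Across 21875 protein-coding genes, 28 (0.128%) held a match in a 5′ and 127 (0.581%) in a 3′ untranslated region. Poly-A RNA gives the transcript level and not the translation that the 5′ elements control. For the 3′ elements of Tfrc it gives the RNA level, and RNA stability was not measured apart from it.

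The IRE binding proteins were both well expressed. Aco1 (IRP1, also a cytosolic aconitase; GeneID 11428; chromosome 4, 40143265 to 40199009, plus strand) had 180.9, 184.4, 183.5 and 167.0 CPM, and Ireb2 (IRP2; GeneID 64602; chromosome 9, 54862658 to 54912534, plus strand) had 116.6, 119.3, 110.2 and 121.8 CPM. Aco1 was 3.00-fold above Ireb2 per length (log2 ratio 1.59 ± 0.053, SE; edgeR, adjusted p = 9.37e-08; above in 4 of 4), and 1.53-fold without a length term. Tfrc, the transferrin receptor, had 143.9, 154.4, 142.0 and 151.7 CPM, with culture 4 inside the range of the others. The divalent metal importer Slc11a2 (DMT1) had 39.0 ± 1.40 CPM, also with little spread, and transferrin itself (Trf), which brain makes mainly in oligodendrocytes and choroid plexus, 9.16 ± 1.11 CPM.

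Iron export was uneven in level. Cp (ceruloplasmin, a copper ferroxidase; GeneID 12870; chromosome 3, 19956933 to 20009750, plus strand) had 399.8 CPM in culture 4 and 543.2, 522.6 and 511.5 CPM in cultures 1 to 3. It was 14.3-fold above its paralogue Heph (hephaestin), at 27.9 ± 0.695 CPM, per length (log2 ratio 3.84 ± 0.076, SE; edgeR, adjusted p = 6.8e-09; above in 4 of 4), with a fold of 11.9 in culture 4 and of 14.9 to 15.5 in the others. The exporter Slc40a1 (ferroportin; GeneID 53945; chromosome 1, 45908070 to 45926532, minus strand) was scarce, at 1.015 CPM or 43 counts in culture 4 and at 2.68, 2.67 and 2.55 CPM in cultures 1 to 3. In culture 4 it only just passed the minimum, and its level there was 0.386 of the mean of the others.

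**Figure D4:**
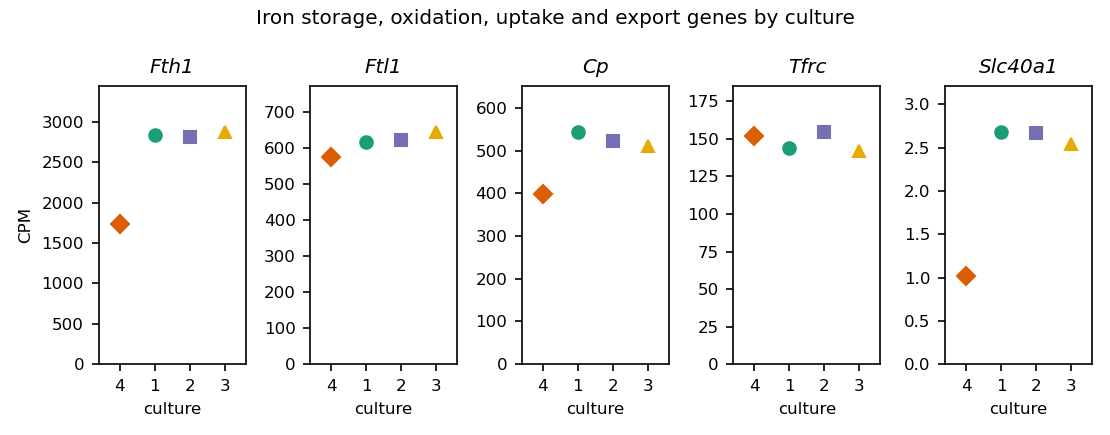
CPM of Fth1, Ftl1, Cp, Tfrc and Slc40a1 in culture 4 and in cultures 1 to 3, each axis from 0. Fth1 (1735 CPM), Cp (399.8 CPM) and Slc40a1 (1.015 CPM) were below every other culture in culture 4 by a visible gap, Ftl1 slightly so, and Tfrc not.

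All 4 copper genes among the members were expressed. The importer Slc31a1 (CTR1) had 123.4, 128.3, 122.2 and 128.4 CPM, and Atox1, the chaperone that hands copper to the pumps, had 51.5, 52.6, 58.1 and 43.7 CPM. Per length Atox1 stood at 100.1 ± 11.6 RPKM and Slc31a1 at 33.4 RPKM on average. Of the copper pumps, Atp7b (GeneID 11979; chromosome 8, 21992783 to 22060074, minus strand) had 36.0, 36.1, 39.5 and 41.3 CPM and Atp7a 23.5 ± 1.83 CPM. Atp7b, best known from liver, was 1.97-fold above Atp7a, known from most other tissues (log2 ratio 0.98 ± 0.060, SE; edgeR, adjusted p = 2.71e-06; above in 4 of 4). With GENCODE lengths it was 1.51-fold above.

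Other genes of these pathways were taken from lists by metal, chosen with earlier results of these data known. The counts expressed therefore describe these lists only. Over all protein-coding genes the share expressed was 58.1%. Of 40 iron genes 31 were expressed, led per length by the heme oxygenase Hmox1 (157.6 ± 19.6 RPKM), the iron chaperone Pcbp1 (152.5 ± 10.0) and the iron reductase Cybrd1 (104.0 ± 3.11 RPKM). The hormone hepcidin (Hamp, Hamp2) and mitochondrial ferritin (Ftmt) had no count. Of 13 copper genes 11 were expressed, led by Sod1 (337.2 ± 4.48 RPKM), Pam (43.5 ± 1.90) and Cox17 (32.6 ± 1.21 RPKM), and both of the other zinc genes, Tmem163 and Slc11a1, were expressed.

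The comparison of culture 4 with the mean of the other 3, on a log2 scale of CPM + 0.5, covered the 36 members with a mean CPM of at least 1. Members more than 1.5-fold lower in culture 4 were Slc40a1, Fth1 and Slc39a12, at log2 differences of -1.05, -0.71 and -0.70, and none was more than 1.5-fold higher. Of all 15217 genes at that level, 4.48% were that much lower and 1.81% that much higher in culture 4. No member was past 1.5-fold in cultures 1, 2 or 3. Among all genes 0.276% were higher and 0.342% lower by that much in culture 1, 0.302% and 0.191% in culture 2, and 0.315% and 0.217% in culture 3. These are differences of single libraries with no test. The median difference of culture 4 was -0.06 for members and 0.03 for all genes, with 16 members above and 20 below 0. The highest members were Slc30a10 (0.31), Mt3 (0.30) and Slc39a10 (0.25).

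Markers of other cells also differed in culture 4. The fibroblast markers summed to 511.5 CPM in culture 4 and to 1334 to 1420 CPM in the others, with 3 of the 4 at a mean CPM of at least 1 lower, and the microglial markers to 73.9 CPM and to 111.4 to 119.5 CPM, with 8 of 8 lower. All 4 oligodendrocyte, 3 neuronal and 3 mural markers at that level were lower as well, and the 2 of choroid plexus and ependyma were not. Their part in the lower values of Slc40a1, Fth1, Cp and Slc39a12 was not tested.

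Spread between cultures, as edgeR's biological coefficient of variation, had a median of 0.0768 over the 38 members past the filter on low counts. The median was 0.0941 over all 17105 genes past it and 0.0852 over the 14725 expressed genes. The steadiest member was Slc39a9 (0.0573) and the least steady Slc40a1 (0.324), with Slc39a12 at 0.185 and Fth1 at 0.184. Without culture 4 the members' median was 0.0248. The common value that edgeR fits to all genes together fell as well, from 0.107 to 0.0262.

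**Figure D5:**
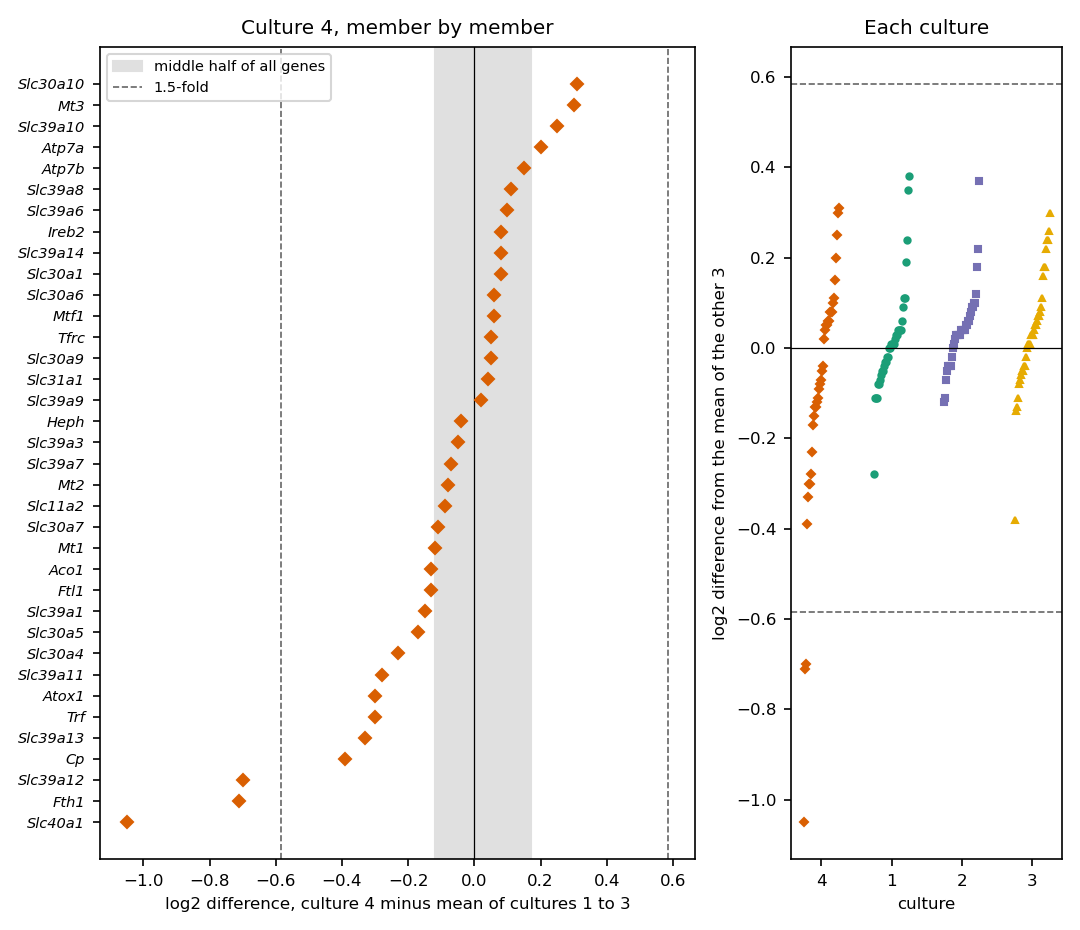
Left, log2 difference of culture 4 from the mean of cultures 1 to 3 for the 36 members with a mean CPM of at least 1, with the interquartile range of all genes in grey and dashed lines at 1.5-fold. Right, the same measure for each culture against the mean of the other 3, so that the means used for cultures 1, 2 and 3 include culture 4. Slc40a1, Fth1 and Slc39a12 are the points beyond 1.5-fold, all in culture 4.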

How the data were processed

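The authors deposited 1 table of estimated counts per gene for 4 stranded poly-A libraries (500 ng RNA, 14 PCR cycles, per the labels), with combined exon lengths; 17 of the 43 members have counts that are not whole. Tools in the submitters' processing notes are STAR 2.7.2b, featureCounts 1.6.4, cutadapt 1.17 and bcl2fastq 2.20.0.422, with build GRCm38.p6; no strand setting is named. Members and lists were chosen with earlier results of these data known. CPM used raw library sums (1 count is 0.0236 to 0.0268 CPM), and RPKM the deposited length, which covers all exons and lowers RPKM where a short transcript is used. Pairs were tested with edgeR 4.0.16 (quasi-likelihood, two-sided, R 4.3.3) on counts rounded to whole numbers, with an offset of library size times length and terms for library and gene. A call was a Benjamini-Hochberg adjusted p below 0.05 over all pairs of 2422 families: at most 30 protein-coding genes whose symbols differ only in the last number, plus Fth1/Ftl1, Cp/Heph, Aco1/Ireb2 and Atp7a/Atp7b, with at least 1 gene of a pair expressed. Such symbols do not always mark true paralogues. The library term pairs both genes of 1 library by construction. SEs are the log2 ratio over the root of F. Values in every culture are given for family leaders, members averaging 50 CPM or more and those past 1.5-fold in 1 culture. GENCODE M21 lengths are medians of basic protein-coding transcripts, found for all 43 members. Scripts were tested on simulated data. At a coefficient of variation of 0.1 the pair test called 21.2% of 1.25-fold and 98.1% of 1.5-fold differences. There 22899 of 23099 pairs were equal and no libraries were near repeats, unlike here. Pairs not told apart are therefore not shown to be equal. Alternatives were DESeq2 1.42.0, other lengths, normalizations and filters, and each culture left out. Floors cover counting error only, as the PCR reads carry no molecular identifiers.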

Additional observations from a re-analysis of the deposited data

Results flagged for a closer look

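For 39 members and 7 ratios of the leading over the second gene of a family, the 4 cultures were searched for 1 value far from the other 3, by Dixon's 95% criterion on the gap over the range. Chance gives about 1 such case in 20. Of the 39 CPM values 6 had one, each time in culture 4. Culture 4 also stood apart over the whole table (chi-square per degree of freedom 39.4 to 41.1 for pairs with culture 4). The share of all genes with such a value was not calculated, so the count says nothing particular about the members.

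In 5 of the 6 culture 4 was lower. Fth1 had 1735 CPM there, against 2819 to 2873 CPM, and Slc40a1 1.015 CPM against 2.547 to 2.677 CPM. Slc39a1 was at 213.5 CPM against 235.3 to 239.0 CPM, Slc30a4 at 47.09 CPM against 54.67 to 55.71 CPM, and Slc30a7 at 41.82 CPM against 44.89 to 45.31 CPM. Mt3 was higher, at 642.0 CPM in culture 4 against 514.9 to 529.4 CPM in the others. Among ratios of RPKM, Cp over Heph was 11.9 in culture 4 against 14.9 to 15.5, and Fth1 over Ftl1 was 1.94 against 2.87 to 2.97. Atp7b over Atp7a was 2.18 in culture 3 against 1.88 to 1.92 in the others.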

How the results depend on the processing

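The count of 36 expressed members was 33 to 36 under every alternative tried (RPKM, TPM, TMM sizes, 5 CPM, each culture left out, cultures 1 to 3 summed). The 135 called pairs became 134 to 140 except when both genes had to be expressed (78 of 83 tested). With the pairing by library dropped (no replicate block) they were 136. Of 23 named ratios over all alternatives, 302 values stayed on their side of the threshold, 10 gained and 3 lost a call. Among those 302, the sign of 3 uncalled values changed: Slc39a12 over Slc39a6 without the length term (-0.16), Slc39a11 over Slc39a9 with cultures 1 to 3 summed (-0.01) and Mt3 over Mt2 with GENCODE lengths (-0.01). Reversed were, without the length term, Slc39a11 over Slc39a9 (-0.52), Slc39a13 over Slc39a10 (-0.50), Slc39a3 over Slc39a14 (-0.48) and Slc30a6 over Slc30a7 (-1.96), and with GENCODE lengths Slc39a9 over Slc39a13 (-1.15), Slc39a3 over Slc39a14 (-1.30) and Slc30a9 over Slc30a5 (-0.25), all log2. Only the length differs in these fits. Past 2-fold instead of 1.5-fold, 1 member (Slc40a1) was lower in culture 4. The members' median coefficient of variation was 0.0248 to 0.0912 with 1 culture left out, lowest without culture 4. Adding pseudogene counts to Ftl1 and Slc39a1 was chosen after seeing the data. Counts limit Slc40a1, Slc39a4, Slc39a2 and Slc30a2.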

Other observations

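Outside the members, some genes of the metal lists differed more in culture 4, and they are named here after their values were seen. Tmem163, a vesicular zinc transporter, had 12.9 CPM in culture 4 and 1.77 to 2.02 CPM in cultures 1 to 3, a log2 difference of 2.48. Lcn2, which binds iron-carrying siderophores, had 1.58 CPM in culture 4 against 7.47 to 8.48 CPM, and the metalloreductase Steap4 2.17 CPM against 4.795 to 5.415 CPM. Of copper enzymes that act outside the cell, Lox, which crosslinks collagen, had 10.1 CPM in culture 4 against 39.3 to 43.5 CPM, and Sod3 14.2 CPM against 32.7 to 33.9 CPM. Cytosolic Sod1 was level, with a log2 difference of -0.01. These are single values with no test.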
